A study of Mus musculus with 6 samples.

Results

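The miR-17-92 cluster was examined with 6 miRNA arrays in CT26, a colorectal cancer cell line from mouse. Its probes were chosen by name: every mouse probe for miR-17, miR-18a, miR-19a, miR-20a, miR-19b or miR-92a, either arm of the hairpin. There were 14 such probes among 1126 mouse probes on the array. A probe counted as measured where its background-subtracted intensity, averaged over its 4 spots, reached 50 on 3 or more of the 6 arrays. This held for 5 cluster probes and for 372 mouse probes in all. The measured ones were miR-17-5p, miR-17-3p, miR-20a-5p, miR-19b-3p and miR-92a-3p.

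The knockdown line carried a short hairpin RNA against the cytokine TGF-β1 in the shRNA-TGF-β1-pSUPER gfp-neo vector, and the control line carried the shRNA-Control-pSUPER gfp-neo vector. Both are CT26 lines called stably transfected, so vector and marker genes are shared by all samples. Each line was sampled at 24, 48 and 72 h, with 1 array for each line and time, from cultures that the submitters describe as grown and harvested independently. What the hours count from, and whether a line is a clone or a pool, are not given in the sources used here. No line and time has a second array, so p-values rest on the spread between these 6 arrays, with variances pooled in part over the measured probes.

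The cluster is a polycistron: a single primary transcript is cut into hairpins, and each hairpin yields a mature guide strand and a less stable passenger strand. The transcription factor Myc activates it, and it is amplified or overexpressed in many cancers. The guides fall into seed families that repress different targets. In human cells miR-17 and miR-20a repress the cell cycle inhibitor CDKN1A and the TGF-β type II receptor, and miR-18a represses SMAD2 and SMAD4. In Myc-transformed mouse colonocytes the cluster represses the anti-angiogenic genes Thbs1 and Ctgf.

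RefSeq (GRCm38.p6) places the 6 hairpins Mir17, Mir18, Mir19a, Mir20a, Mir19b-1 and Mir92-1 in this order within 836 bases at chr14:115043671-115044506 on the plus strand. Mature sequences were found for 13 of the 14 probes' miRNAs. The guides are shown because the results below divide them by seed and by near-identical sequence, with the seed (bases 2 to 8) in capitals, 5′ to 3′. The seed of miR-17-5p (chr14:115043684-115043706) and miR-20a-5p (chr14:115044183-115044205) is shared.
miR-17-5p: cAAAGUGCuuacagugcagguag
miR-20a-5p: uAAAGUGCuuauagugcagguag
The seed of miR-18a-5p (chr14:115043867-115043889) differs from it inside the seed.
miR-18a-5p: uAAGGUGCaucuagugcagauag
The miR-19 seed is shared by miR-19a-3p (chr14:115044048-115044070) and miR-19b-3p (chr14:115044358-115044380).
miR-19a-3p: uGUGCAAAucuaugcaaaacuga
miR-19b-3p: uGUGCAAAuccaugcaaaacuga
The last guide is miR-92a-3p (chr14:115044476-115044496).
miR-92a-3p: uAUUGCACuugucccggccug
The passenger strand miR-17-3p (chr14:115043721-115043742) is the only measured one.
miR-17-3p: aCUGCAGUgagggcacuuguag
Counting from 1 at the 5′ end, miR-17-5p and miR-20a-5p differ at C1U and C12U, and miR-19a-3p and miR-19b-3p at U11C. The same mature miR-19b-3p and miR-92a-3p are also encoded on the X chromosome, by Mir19b-2 and Mir92-2, so their probes read both loci.

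The arrays differ in ways that bear on every value below. Between 321 and 374 mouse probes reached 50 on an array, and median local background ran from 89 to 181, highest on the control array of 48 h. Each probe is printed in 2 spots in blocks 1 to 18 and again in 2 spots in blocks 19 to 36, called here the first and second copy. Spots of the same copy lay close, with a median gap of 0.13 to 0.28 on the log2 scale, but the copies did not always match. Between 19.2% (control, 24 h) and 44.7% (control, 48 h) of probes at 50 or more in either copy differed at least 2-fold between copies, and 40.2% did on the knockdown array of 48 h. Values are therefore also given by copy where a difference between the lines turns on them. The Tgfb1 transcript is not read by a miRNA array, so the knockdown could not be checked. The labelled intestinal origin was checked too, and of 21 probes for epithelial miRNAs 5 were measured. Below 50 on all 6 arrays were miR-192-5p, miR-194-5p, miR-215-5p, miR-200a-3p, miR-200b-3p, miR-429-3p and miR-141-3p. Only miR-200c-3p and miR-141-5p, the other arm of miR-141, reached 50 on 5 among the miR-200 family probes, up to 174 and 144.25. The other measured probes of the list belong to miR-375 or miR-147 and are not given singly here. Summed over the whole list, intensity ran from 351 to 2136 in the knockdown and from 664 to 1010 in the control. The probes named above are thus not the bulk of the epithelial signal.

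Over all spots, the miR-17 seed members were brightest in the knockdown at 48 h and dimmer in the knockdown than in the control at 24 and 72 h. For miR-17-5p, the background-subtracted intensity in the knockdown read 23.5, 1127 and -13.2 at the successive times. In the control it was 98, 39.8 and 54.5. Only the 48 h knockdown array stands apart, and on 3 of the 6 arrays the probe lay below 50. Both copies reached 50 on 1 array only, that of the knockdown at 48 h: in the control the copies read 180 and 16 at 24 h, 150 and -70.5 at 48 h and 106.5 and 2.50 at 72 h. Its spots at 48 h were 1632, 1538, 822 and 516 in the knockdown and 302, -2, -70 and -71 in the control, so every knockdown spot exceeded every control spot. After quantile normalisation the knockdown exceeded the control by at least 5.45-fold at 48 h, a bound because the control side was not well above background. The log2 difference was 2.09 on the first copy and 2.71 on the second.

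For miR-20a-5p, knockdown intensities were 361, 2731 and 211 at 24, 48 and 72 h. In the control it was 835.5, 746 and 756.5. It was among the 2 cluster probes at 50 or more on all 6 arrays, and the control values lie close together. The 48 h knockdown value, however, averages 2 very different copies. Its first-copy spots read 5124 and 4859, and its second-copy spots 464 and 478, a 10.6-fold gap on a single array. On the control array of 48 h the gap ran the other way, with first-copy spots of 241 and 216 and second-copy spots of 1308 and 1220. On the first copy miR-20a-5p was thus 7.75-fold higher in the knockdown at 48 h, and on the second copy 2.30-fold lower. Over all spots the difference was 1.99-fold with a standard error over spots of 1.01 on the log2 scale. At 24 and 72 h the copies gave the same direction: miR-20a-5p was 2.30-fold and 3.22-fold lower in the knockdown, with log2 differences of -1.79 and -0.55 for the first and second copy at 24 h and -2.14 and -1.11 at 72 h. A single spot of -28 on the knockdown array of 24 h, beside spots of 500, 484 and 489, takes part in the first of these values.

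**Figure D1:**
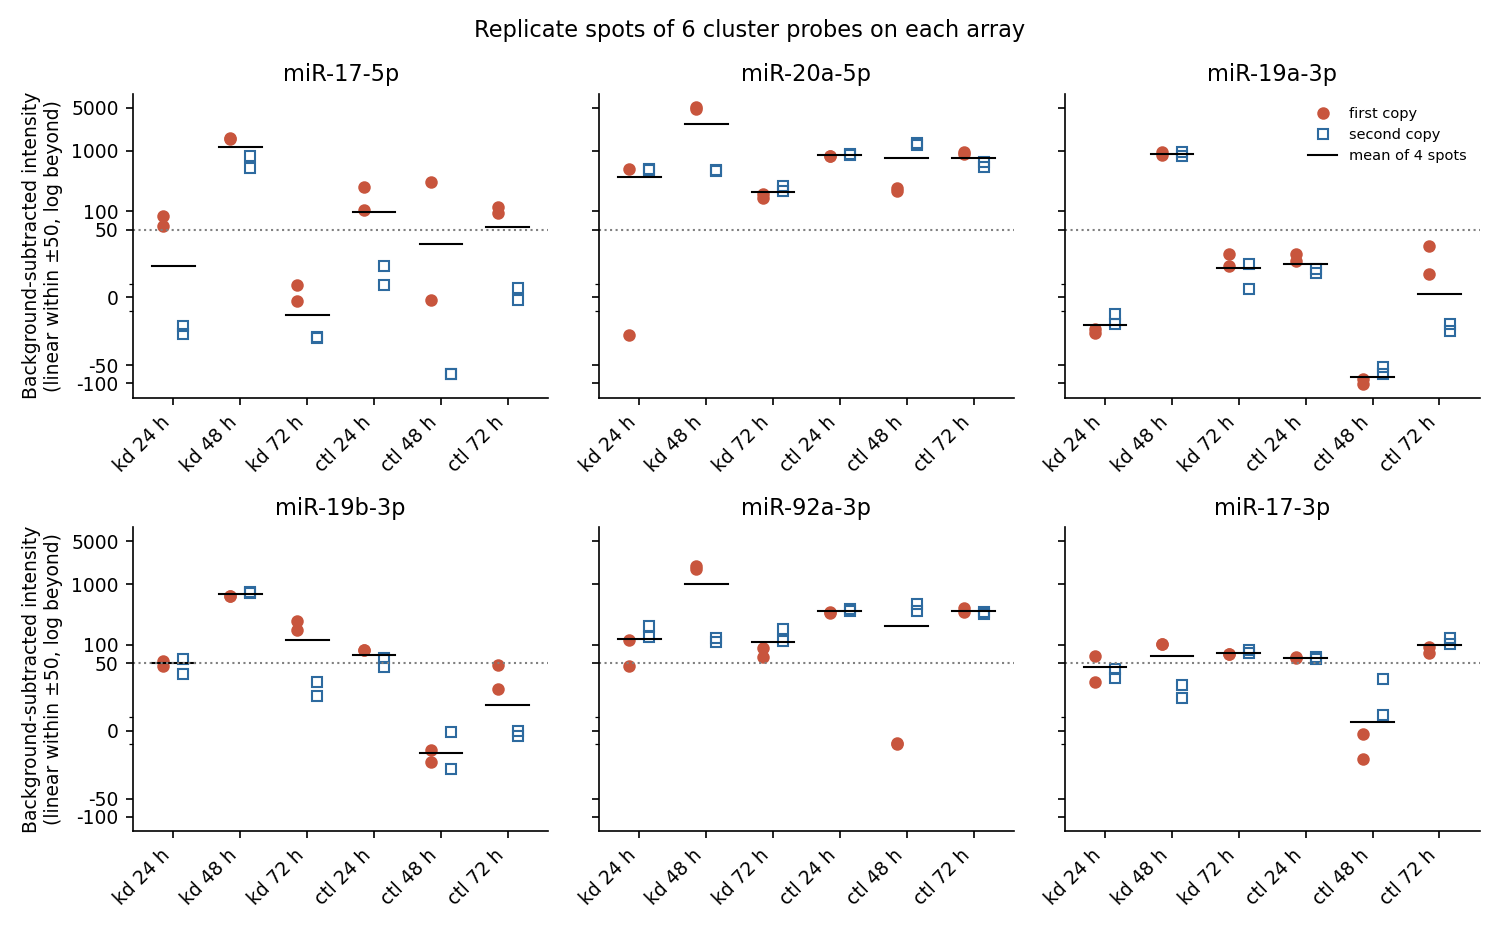
Background-subtracted intensity (y axis, linear within 50 of 0 and logarithmic beyond) of the spots of 6 cluster probes on the 3 knockdown (kd) and 3 control (ctl) arrays; filled circles are first-copy spots, open squares second-copy spots, bars the mean of 4 spots, and the dotted line marks 50. For miR-19a-3p and miR-19b-3p the copies lie together on the knockdown array of 48 h, whereas for miR-20a-5p and miR-92a-3p they part there and on the control array of 48 h.

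The miR-19 guides read high in all 4 spots of the knockdown array of 48 h, as miR-17-5p did. How large their excess over the control was depended on the processing, as given at the end. miR-19b-3p read 51, 681 and 121 at 24, 48 and 72 h in the knockdown and 68.2, -16.5 and 19 in the control. Its 48 h knockdown copies were 628.5 and 733.5, and its 48 h control copies -18.5 and -14.5. At 72 h the knockdown copies parted, at 210.5 and 31. At 48 h its knockdown value exceeded the control by at least 3.93-fold. At 24 h the lines differed by 1.01-fold, and at 72 h the control side was below 50 and the knockdown at least 1.16-fold higher. miR-19a-3p, its near-identical partner, missed the rule for measured probes because it reached 50 on 1 array only. There it read 885.5, with copies of 893 and 878, and elsewhere between -77.2 and 24.5. The excess of the knockdown at 48 h was at least 4.64-fold. Since the 2 guides differ in a single base and the hybridisation's ability to part them is not documented in the sources used here, their probes are not independent readings.

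The miR-92a guide followed miR-20a-5p, including the disagreement between copies. miR-92a-3p read 126, 1002.5 and 113 in the knockdown and 358, 202 and 357 in the control at 24, 48 and 72 h. The control values at 24 and 72 h are nearly equal. On the knockdown array of 48 h its copies read 1884.5 and 120.5, and on the control array of 48 h -9.50 and 414. The 48 h difference was therefore 3.00 on the log2 scale on the first copy and -0.82 on the second, with 2.29-fold higher in the knockdown over all spots. At 24 h it was 1.81-fold lower in the knockdown and at 72 h 2.26-fold lower, with both copies on the same side.

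Probes of miR-20a-5p and miR-92a-3p share their place on the array, in blocks 16 and 34. On the knockdown array of 48 h, 16 of the 19 mouse probes outside the cluster in these blocks with a signal were brighter on the first copy, with a median log2 gap of 0.92. On the control array of 48 h only 1 of 18 was, with a median of -0.59. The gaps of miR-20a-5p itself were 3.41 and -2.47 and those of miR-92a-3p 3.97 and -4.69, in the direction of their neighbours and larger than the median there. On the knockdown array both lay within the neighbours' range of -0.31 to 6.08, and on the control array both lay outside the range of -2.01 to 0.24. Over all arrays, the copies differed at least 2-fold in 13 of 26 pairs of a measured cluster probe and an array with a signal, against 33.2% of such pairs for all mouse probes.

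miR-18a, whose guide is made from the same transcript, was not seen: miR-18a-5p lay between -95 and -36 on all 6 arrays. Its passenger miR-18a-3p reached 216.5 on the control array of 48 h, with copies of 224 and 209, and 54.5 on the knockdown array of 24 h, and stayed below 50 elsewhere. It was at least 1.81-fold lower in the knockdown at 48 h. The passenger miR-17-3p read 47, 66 and 75 in the knockdown and 61.5, 6.75 and 100.2 in the control at 24, 48 and 72 h. It was at least 1.01-fold lower in the knockdown at 24 h, at least 1.20-fold higher at 48 h and 1.20-fold lower at 72 h. The passenger miR-92a-2-5p, which belongs to the X-linked Mir92-2, read 338.5 on the knockdown array of 72 h and at most -3 on the others. Its excess in the knockdown at 72 h was at least 1.94-fold. The remaining 6 probes, miR-18a-5p, miR-19a-5p, miR-20a-3p, miR-19b-1-5p, miR-19b-2-5p and miR-92a-1-5p, lay between -101.8 and 0 on every array. For the rule itself, the deciding value is the intensity on the third brightest array, 54.5 for miR-17-5p just inside and 21.5 for miR-19a-3p just outside.

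Counts at 2-fold use the normalised values as they stand, also where a side below 50 gives a smaller bound. This concerns miR-18a-3p at 48 h and miR-92a-2-5p at 72 h, whose bounds of 1.81-fold and 1.94-fold do not reach 2-fold. Among cluster probes with at least 50 on either array of a time point, 1 of 6 was lower in the knockdown at 24 h (miR-20a-5p), where 8.47% of all such mouse probes were. None was higher, against 2.66%. At 48 h 4 of 7 were higher (miR-17-5p, miR-19a-3p, miR-19b-3p and miR-92a-3p), where 21.5% of all were, and 1 of 7 was lower (miR-18a-3p), against 13.2%. At 72 h 2 of 6 were lower (miR-20a-5p and miR-92a-3p), against 25.3%, and 1 of 6 was higher (miR-92a-2-5p), against 18.5%. Requiring 2-fold on each copy alone left 3 of 7 higher at 48 h, miR-17-5p, miR-19a-3p and miR-19b-3p, where 13.2% of all probes qualified, and 1 of 7 lower, miR-18a-3p, against 7.03%. At 72 h it left miR-20a-5p lower, 1 of 6, against 17.6%, and miR-92a-2-5p higher, 1 of 6, against 12.6%. At 24 h it left none, against 5.57% lower and 1.94% higher. Each count compares a pair of arrays without replicates. At 48 h miR-17-5p, miR-19a-3p and miR-19b-3p entered only through the knockdown array, and miR-18a-3p only through the control array. At 72 h miR-92a-2-5p entered only through the knockdown array. The near-identical miR-19a-3p and miR-19b-3p are counted apart although they are not independent readings. The counts are therefore descriptions only.

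**Figure D2:**
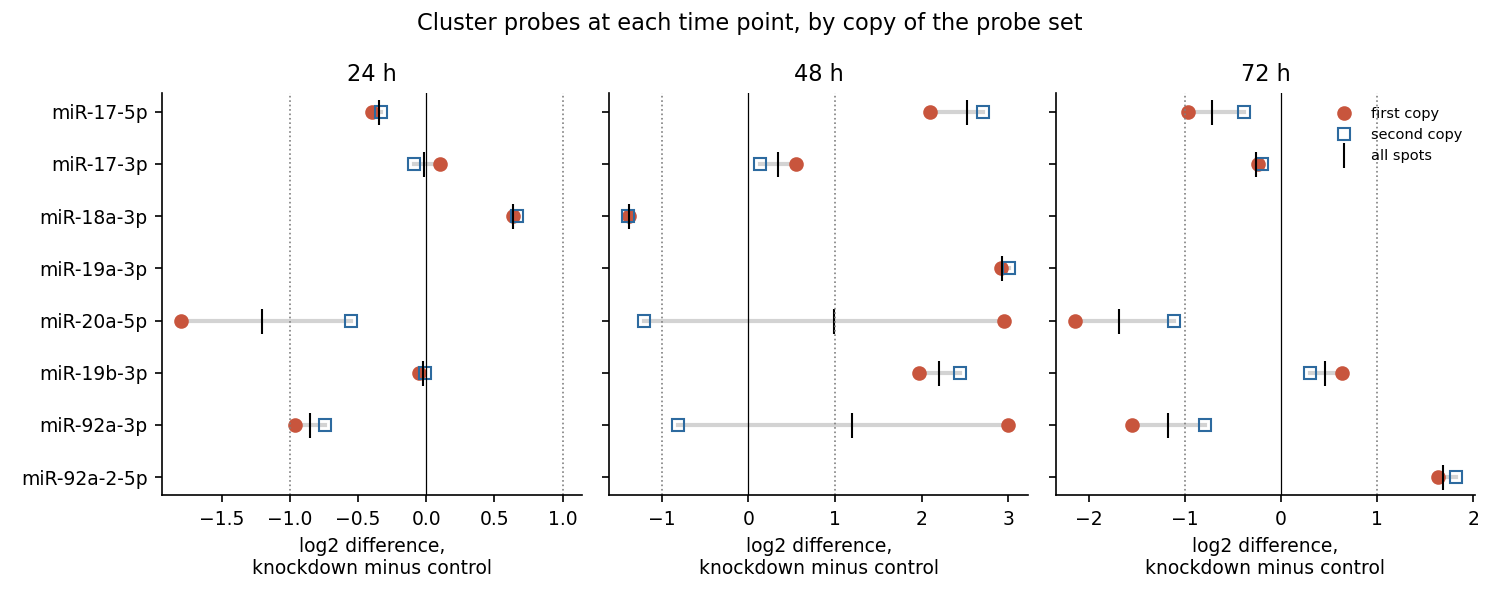
Log2 difference in normalised intensity, knockdown minus control (x axis), for each cluster probe that reached 50 on either array of a time point (panels 24, 48 and 72 h); filled circles use first-copy spots, open squares second-copy spots and vertical ticks all spots, and dotted lines mark 2-fold. The copies of miR-20a-5p and miR-92a-3p lie on opposite sides of 0 at 48 h, while miR-17-5p, miR-19a-3p and miR-19b-3p lie above 2-fold on each copy.

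Whether the knockdown differed from the control over the 3 time points was tested in limma with time as a block, over all 372 measured probes. None of the 5 cluster probes passed, nor did any other probe (0% of 372). At an unadjusted p under 0.05 there was 1 probe among the 372 and none in the cluster. The normalised log2 intensity of miR-19b-3p averaged 8.42 ± 0.99 (SD, n = 3) for knockdown arrays and 7.55 ± 0.21 (SD, n = 3) for control arrays. The resulting 0.88 lay between 95% bounds of -0.18 and 1.94 (limma adjusted p = 0.998). For miR-20a-5p the means were 9.26 ± 1.14 (SD, n = 3) and 9.89 ± 0.29 (SD, n = 3), giving -0.63 (95% bounds -2.08 and 0.81, limma adjusted p = 0.998). In each of these, over all spots, the knockdown arrays spread more widely than the control arrays, through the 48 h array. On the second copy of miR-20a-5p, however, the knockdown array of 48 h did not stand apart. There the normalised values at 24, 48 and 72 h were 9.5, 9.4 and 8.5 in the knockdown and 10.1, 10.6 and 9.7 in the control. The differences were 0.49 for miR-17-5p, with an interval from -0.86 to 1.83, -0.28 for miR-92a-3p, from -1.68 to 1.12, and 0.02 for miR-17-3p, from -0.86 to 0.90. The median over the 5 was 0.02, and over all 372 probes -0.11. Without the 48 h arrays the cluster median was -0.53 and miR-17-5p was at -0.53, so its sign rests on 48 h. Under small RNA scaling the median of all probes shifted from -0.11 to -0.78, and that of the cluster to -0.75. Neither the slope over time in both lines nor the difference of slopes passed for a cluster probe or for any of the 372 (0% each), and 9 of the 372 had an unadjusted p under 0.05 in each. Fitted slopes of the cluster probes ran from -0.13 to 0.11 per 24 h, and differences of slopes from -0.24 to 0.24.

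The opposite signs at 48 h were put to a test of their own: the line difference at 48 h against that at 24 and 72 h. The order lower at 24 and 72 h and higher at 48 h held for 4 of the 5 cluster probes and for 30.9% of the 372. This term was chosen with the pattern known and leaves 1 residual degree of freedom. Its variances were therefore taken mostly from pooling over the 372 probes, so its p-values and bounds do not rest on replicate arrays. Over the 372 probes the median estimate was 0.18, and over the cluster probes the estimates ran from 0.48 to 3.06. The term passed for 13 of 372 probes (3.49%) in limma and for none of the 5 cluster probes. miR-17-5p came nearest, at 3.06 on the log2 scale, bounds 1.13 and 5.00 (limma adjusted p = 0.0533). It passed with cyclic loess (adjusted p = 0.00308), with the median of spots (adjusted p = 0.0159) and with the authors' ratios (adjusted p = 0.00758), and not under the other alternatives, where the adjusted p reached 0.405 under small RNA scaling. For miR-20a-5p the term was 2.44 (limma adjusted p = 0.408), for miR-92a-3p 2.21 (adjusted p = 0.625), for miR-19b-3p 1.98 (adjusted p = 0.395) and for miR-17-3p 0.48 (adjusted p = 0.927). On the first copy alone miR-20a-5p, at 4.92 (adjusted p = 0.00330), and miR-92a-3p, at 4.26 (adjusted p = 0.0302), passed. On the second copy alone they stood at -0.37 and -0.05, and 0 probes passed in all, against 26 on the first copy. For miR-17-5p the copies gave 2.77 (adjusted p = 0.221) and 3.07 (adjusted p = 0.178). Marker lists were also examined. Of 8 measured fibroblast and smooth muscle probes, 2 passed the 48 h term. Their median differences at 24, 48 and 72 h were -0.49, 0.50 and -1.23, beside -0.35, 1.19 and -0.72 for the cluster. Their summed intensity ran from 1715 to 7646 in the knockdown and from 4406 to 5814 in the control. Intestinal epithelium probes, for the labelled origin, had the opposite signs, with medians of 0.28, -0.46 and 0.14. Blood cell probes had -0.65, -0.11 and -0.05. In these 2 lists 0 probes passed the 48 h term. The part of any marker list in the result was not tested.

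**Figure D3:**
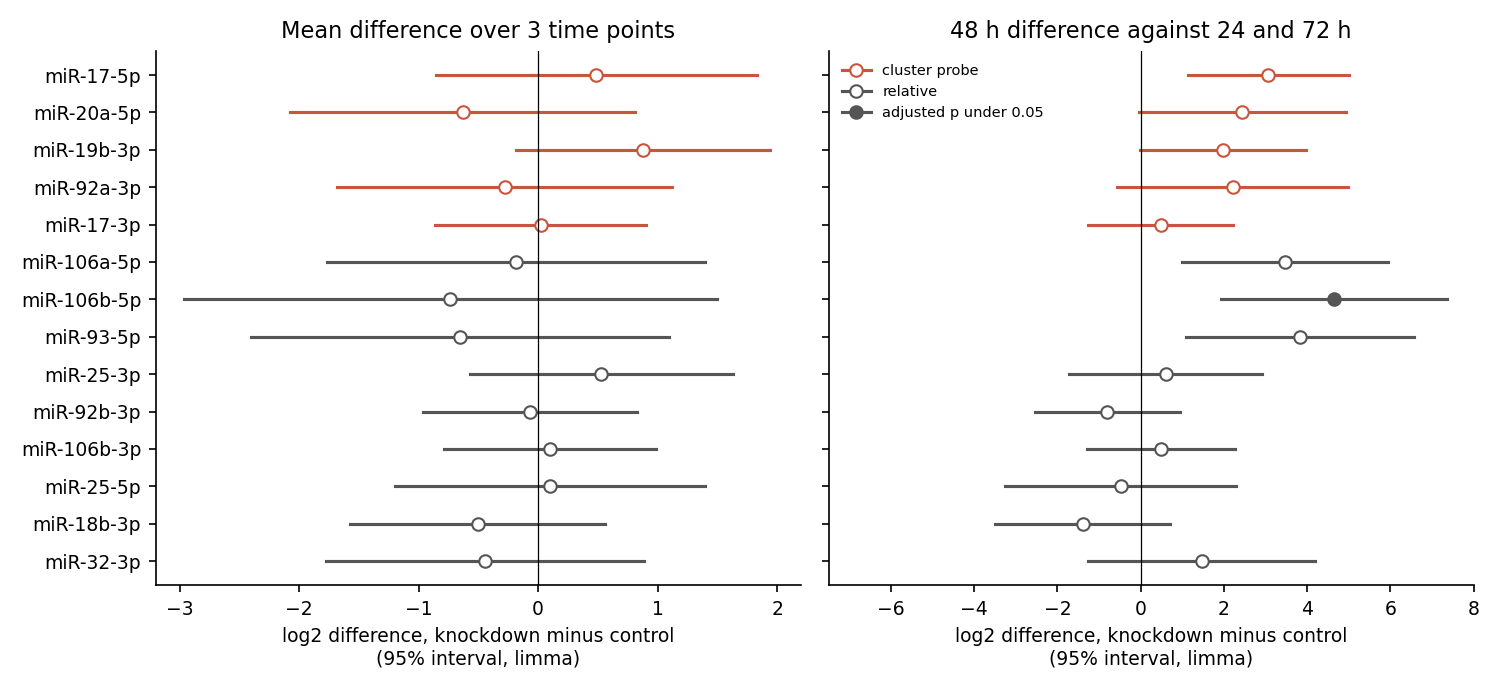
Limma estimates (points) with 95% intervals (lines) of the log2 difference, knockdown minus control, over the 3 time points (left) and of the 48 h difference against 24 and 72 h (right), for the 5 measured cluster probes and 9 measured probes of their relatives; filled points have an adjusted p under 0.05. On the left every interval spans 0, and on the right only miR-106b-5p is filled.

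The cluster has paralogs, miR-106b-25 within Mcm7 and the X-linked miR-106a-363, which carry the same seeds, and the guides of miR-32, miR-92b and miR-367 share the miR-92a seed. Of 20 probes for either arm of these relatives 9 were measured. Of the 9, miR-106a-5p, miR-106b-5p, miR-93-5p, miR-25-3p and miR-92b-3p carry a cluster seed, and miR-106b-3p, miR-25-5p, miR-18b-3p and miR-32-3p are other arms with seeds of their own. Guides whose values are described below are shown, with the seed in capitals, and miR-106a-5p differs from miR-17-5p at U10A alone.
miR-106a-5p: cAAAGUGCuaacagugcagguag
miR-20b-5p: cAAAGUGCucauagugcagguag
miR-106b-5p: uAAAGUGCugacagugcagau
miR-93-5p: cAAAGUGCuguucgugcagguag
miR-25-3p: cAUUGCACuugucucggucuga
miR-32-5p: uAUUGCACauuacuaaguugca
miR-92b-3p: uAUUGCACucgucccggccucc
miR-106a-5p is on the X chromosome (chrX:52742541-52742563), as is miR-20b-5p (chrX:52742159-52742181). On chromosome 5 lie miR-106b-5p (chr5:138165787-138165807), miR-93-5p (chr5:138165574-138165596) and miR-25-3p (chr5:138165332-138165353), on chromosome 4 miR-32-5p (chr4:56895272-56895293), and on chromosome 3 miR-92b-3p (chr3:89227126-89227147), all on the minus strand in GRCm38.p6.

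The measured relatives with the miR-17 seed, miR-106a-5p, miR-106b-5p and miR-93-5p, had the same order of lines as miR-17-5p, with the knockdown brighter at 48 h and dimmer at 24 and 72 h. Including miR-32-3p, which carries no cluster seed, 4 of the 9 measured relatives had this order, as did 30.9% of all 372 measured probes. miR-106a-5p read 78, 657 and -17.8 in the knockdown and 242, -10.8 and 297.5 in the control at 24, 48 and 72 h. Its 48 h copies were 739.5 and 574.5 in the knockdown and 21.5 and -43 in the control, and it was at least 3.80-fold higher there and at least 2.84-fold lower at 72 h. miR-20b-5p, below 50 on 5 arrays, read 324 on the knockdown array of 48 h, with copies of 205 and 442.5. These probes thus resemble miR-17-5p and the miR-19 guides, in that both copies carry the 48 h value. As miR-106a-5p and miR-20b-5p differ from miR-17-5p in 1 and 2 bases, their probes too are not taken as independent readings. miR-106b-5p and miR-93-5p instead behaved like miR-20a-5p: on the knockdown array of 48 h their copies read 3724.5 and 44.5, and 2405 and 35.5. miR-106b-5p alone among the relatives passed the 48 h term, at 4.64, bounds 1.92 and 7.37 (limma adjusted p = 0.0298). Its knockdown value at 48 h rests on the first copy. On the control array of 72 h both copies were bright, at 733.5 and 4854. In the miR-92a seed family miR-25-3p read 483 at 48 h and 309.5 at 72 h in the knockdown, against 157 and 35.5 in the control. At 24 h miR-25-3p was dimmer in the knockdown, at 4.50 against 64.2. miR-92b-3p went the other way at 48 h, with 31.5 in the knockdown and 184 in the control, whose copies read 20 and 347.5. miR-32-5p read 816 on the knockdown array of 48 h, with copies of 1093 and 538.5. Over the 3 time points none of the 9 relatives passed in limma, and their median difference was -0.18. The differences ran from -0.74 for miR-106b-5p, -0.65 for miR-93-5p, -0.51 for miR-18b-3p and -0.45 for miR-32-3p to 0.53 for miR-25-3p. Near 0 lay miR-92b-3p at -0.06 and the passengers miR-106b-3p and miR-25-5p at 0.10 each.

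As a counterpart, miRNAs reported to be repressed by Myc, among them the let-7 and miR-30 families, had 37 of 69 probes measured. None passed over the 3 time points in limma, 29 lay below 0 and 8 above, with a median of -0.30. Of all 372 probes 157 lay above and the others below, with a median of -0.11. The lowest were miR-195a-5p at -1.39 and miR-30c-5p at -1.16, and the highest miR-29b-3p at 0.47 and miR-30e-5p at 0.40. At 24, 48 and 72 h their medians were -0.57, 0.68 and -0.96, beside -0.35, 1.19 and -0.72 for the 5 cluster probes and -0.12, 0.19 and -0.39 for all 372. The 48 h term passed for 4 of the 37, miR-22-3p, miR-16-5p, let-7g-5p and miR-195a-5p, against 3.49% of all. The Myc-activated cluster and the list reported as repressed thus had medians of the same sign at each time. By copy, the 48 h median of the cluster was 2.09 on the first and 0.14 on the second, and that of the Myc-repressed list 0.05 and 0.61.

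In bulk RNA, fewer cells carrying a miRNA and less of it per cell cannot be told apart. The 4 measured guides had their highest normalised value on the knockdown array of 48 h, as did 19.4% of the 372 probes, while miR-17-3p had its highest on the control array of 72 h. Among the cluster probes, Pearson's r over the 6 arrays was 0.94 between miR-92a-3p and miR-20a-5p, 0.90 between miR-19b-3p and miR-17-5p and 0.43 between miR-19b-3p and miR-20a-5p. With miR-17-3p the guides had r from 0.22 to 0.55. Outside the cluster, the 5 measured probes with the highest r to the cluster's mean profile were miR-206-3p (0.996), miR-1843a-3p (0.964), miR-146b-5p (0.956), miR-218-5p (0.951) and miR-669b-3p (0.949). The lowest 2 were miR-2137 (-0.983) and miR-710 (-0.956). These are descriptions over 6 arrays that share their scaling. With copies taken alone, r for miR-218-5p was 0.06 on the first and 0.95 on the second, and for miR-206-3p 0.86 and 0.50. For miR-1843a-3p it was 0.96 and 0.92. Of the relatives, miR-106a-5p had an r of 0.91 and miR-25-5p one of -0.64.

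**Figure D4:**
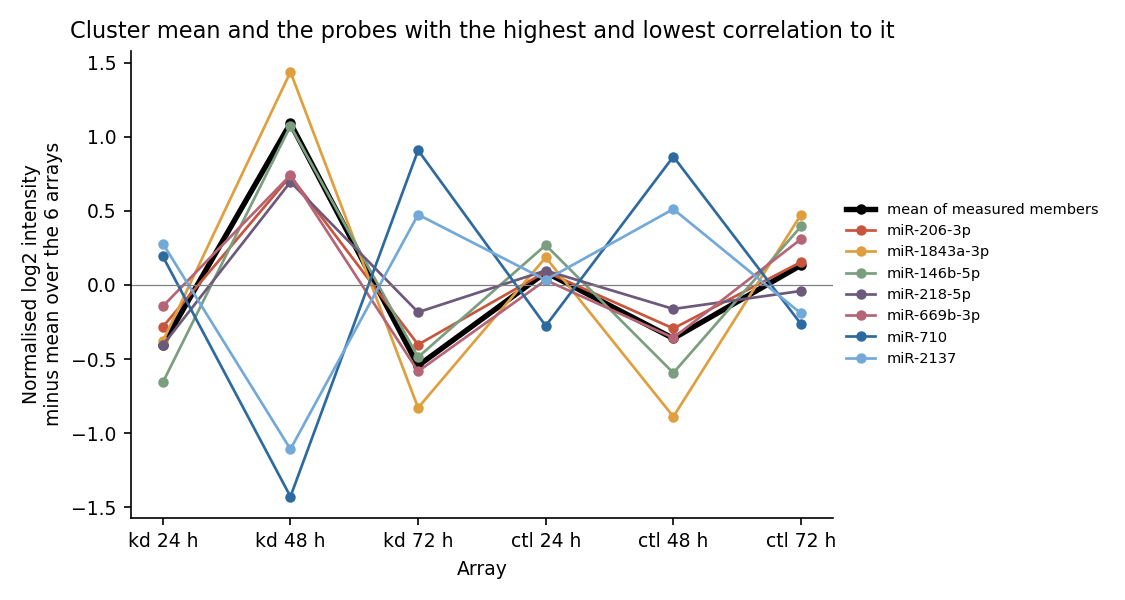
Normalised log2 intensity minus the probe's mean over the 6 arrays (y axis) on each knockdown (kd) and control (ctl) array, for the mean of the 5 measured cluster probes (thick line) and the 5 probes with the highest and 2 with the lowest correlation to it. The highest-ranked probes peak with the cluster on the knockdown array of 48 h, where miR-710 and miR-2137 are lowest.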

How the data were processed

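The authors deposited, per the file headers, 2 unscaled values for every spot of the 6 Hy3 arrays, foreground intensity and the same intensity less local background. A second deposited table held a ratio per probe, which equalled the median background-subtracted intensity divided by 1 number per array (313.5 to 397, within a relative tolerance of 1e-06). How that number was chosen is unknown, and the columns were not centred (medians 0.259 to 0.514). Scanner software and array version are not given in the sources used here.

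The numbered descriptions of the samples matched columns to arrays. In limma 3.58.1 (R 4.3.3), normexp with offset 50 removed background, the log2 spots of a probe were averaged, and quantile normalisation ran over mouse, viral and unnamed probes. Models used trended, robust moderated variances and Benjamini-Hochberg adjustment over all 372 measured probes at 0.05. They were also run on simulated data with planted changes and independent noise per probe. As that noise has no part shared within an array or copy, the simulation cannot show how p-values behave on these arrays. A side below 50 gave a bound, against its own value or, if higher, the dimmest normalised probe at 50 or more there. Standard errors over spots cover spot noise only, and the number of arrays limits precision. Members, lists and the 48 h term were chosen with earlier results of these data known. Named were all members, measured seed relatives, the 2 highest and 2 lowest Myc-repressed probes, and the 5 highest and 2 lowest correlations. The copies of the probe set were separated after the data were seen. Also named after the data were seen were miR-20b-5p, miR-32-5p, miR-363-5p and the further Myc-repressed probes that passed the 48 h term. Between the lines, deviations at a shared time correlated at -0.30, -0.52 and -0.34 at 24, 48 and 72 h; time stayed a block because the labels share it. Marker lists for fibroblasts and smooth muscle (8 of 11 probes measured) and blood cells (5 of 14) had median differences of -0.31 and -0.07 over the 3 time points, with 0 called there in limma, and 2 and 0 called by the 48 h term. Their summed intensities ran from 1715 to 7646 and from 1272 to 2726 in the knockdown, and from 4405 to 5814 and from 1686 to 2404 in the control. For intestinal epithelium the median was 0.02 and the sums ran from 351 to 2136 and from 664 to 1010. All samples are labelled as CT26 lines, and whether they hold other cell types was not examined. The part of these marker miRNAs in the results was not tested.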

Additional observations from a re-analysis of the deposited data

Results flagged for a closer look

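Beyond the tested probes, miR-19a-3p and miR-92a-2-5p had a signal on a knockdown array above every control array, while miR-18a-3p was brightest on a control array. miR-19a-3p read 885.5 on the knockdown array of 48 h, against at most 24.5 on the control arrays. miR-92a-2-5p read 338.5 on the knockdown array of 72 h, against at most -3 on the control arrays. In each case both copies of the probe carry the signal, with 893 and 878 for miR-19a-3p and 304 and 373 for miR-92a-2-5p. Such values were not particular to the cluster. Among untested relatives, miR-363-5p read 261.5 on the knockdown array of 72 h, and miR-20b-5p 324 and miR-32-5p 816 on that of 48 h, each above every control array. The share among all untested mouse probes was not counted.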

How the results depend on the processing

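No cluster probe passed over the 3 time points, for the slope or for the difference of slopes under any alternative run. Time was the block in the main analysis; with no replicate block the count over the 3 time points was 0, as with it. Leaving out both arrays of a time point gave 0 to 3 called probes, 3 of them without 48 h, and leaving out single arrays gave 0 to 1 for the difference of slopes. The 48 h term called 13 probes, and 7 with subtracted background, 6 with median scaling, 23 with cyclic loess, 28 with the authors' ratios, 21 with no filter, 1 with 50 required on all arrays, 22 without trend, 26 on the first copy and 0 on the second. The same term at 24 h and at 72 h called 0 each. Among cluster probes it called 1 with cyclic loess, the median of spots or the authors' ratios, and 2 on the first copy. Its sign turned for miR-17-3p with small RNA scaling (-1.57), and for miR-20a-5p (-0.37) and miR-92a-3p (-0.048) on the second copy. The difference over the 3 time points turned for miR-92a-3p with median scaling (0.11), on the first copy (0.16) and without arrays of 24 h (0.0088) or 72 h (0.17). It turned for miR-17-3p with no scaling (-0.11), small RNA scaling (-0.75), the second copy (-0.050), without the 48 h arrays (-0.14) and, unblocked, without the knockdown (-0.0066) or control (-0.11) array of 48 h. For miR-17-5p it turned with small RNA scaling (-0.35), without 48 h (-0.53) and, unblocked, without the 48 h knockdown array (-0.43). Over the analyses without a time point, values ran from -0.53 to 1.09 for miR-17-5p and from -1.02 to 0.17 for miR-92a-3p. The 48 h difference of miR-92a-3p became -0.80 with small RNA scaling and -0.82 on the second copy. That of miR-19b-3p kept its sign but moved in size in 9 alternatives and held in 5. For miR-19a-3p it moved in 6 and held in 8, and for miR-17-5p it moved in 3 and held in 11. With small RNA scaling the 48 h term was 0.23 for miR-19b-3p and 1.37 for miR-17-5p.

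At 24 h, 1 cluster probe was higher with subtracted background, the authors' ratios or a 1.5-fold threshold. Lower ones numbered 2 with subtracted background, median scaling or 1.5-fold, and 0 with the median of spots, the second copy, the authors' ratios or 4-fold. At 48 h, 1 was higher with small RNA scaling or 50 on all arrays; 2 were lower with small RNA scaling or the second copy, and 0 with 50 on all arrays or 4-fold. At 72 h, 2 were higher with subtracted background or the authors' ratios, and 0 with no scaling, small RNA scaling, 50 on all arrays or 4-fold. Lower ones at 72 h were 0 with median scaling or 4-fold and 1 with mouse-only quantiles or the second copy. Of the 5 probes most like the cluster, 3 stayed among the top 5 with median scaling, cyclic loess, no scaling or the median of spots, and 2 with subtracted background, mouse-only quantiles, the second copy or the authors' ratios. With no filter 1 stayed, and 0 with small RNA scaling, the first copy, 50 on all arrays or Spearman's rho. Leaving out single arrays kept 1 to 5, 1 without the knockdown array of 48 h. With small RNA scaling r was 0.0153 for miR-710 and 0.073 for miR-2137. The separation by copy was chosen after seeing the data. The cause of these changes was not tested. Arrays without replicates and probes near background limit what these data can resolve.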
